A study of Mus musculus with 12 samples.

Results

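The heat shock proteins and their cochaperones are described here as 10 genes in cells sorted from the brains of old p16-3MR mice: Hspa1a, Hspa1b, Hspa5, Hspa8, Hsp90aa1, Hsp90ab1, Hsp90b1, Hspb1, Hspd1 and Dnajb1. They were chosen by name as a list and were found as 10 of the 47643 gene identifiers in the count table. The p16-3MR transgene, which places red fluorescent protein (RFP) with a luciferase and a viral thymidine kinase under the p16 promoter, was carried by all mice, so both populations came from transgenic animals and were separated by RFP signal. The 5 mice were males on a C57BL/6 background aged 113 to 116 weeks. Each gave 1 sample labelled RFPneg and 1 labelled RFPpos, called RFPLow and RFPHigh in the study's methods, and no young mice were analysed here. Samples with the same number were taken as the same mouse. The cells were released with protease on ice, and RNA was read as 3′ tags by QuantSeq.

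Heat shock proteins are chaperones that keep other proteins folded. HSP70 proteins bind unfolded segments with the help of J-domain partners, HSP90 proteins finish the folding of client proteins, small heat shock proteins hold denatured proteins in solution, and HSP60 encloses proteins in mitochondria. Heat and oxidative damage switch on the inducible members through the transcription factor HSF1, whereas the chaperones of the endoplasmic reticulum (ER) follow the unfolded protein response of that compartment. In brain studies, the inducible HSP70 genes and immediate early genes are also read as marks of stress during tissue dissociation.

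The libraries held 177287 to 415834 counts on genes, so 1 count stood for 2.39 to 5.54 CPM (counts scaled to a fixed library total) after scaling. The labels call the cells RFPneg and RFPpos and name no cell type. Markers of microglia made up 2.13% ± 0.434 of the counts in RFPneg and 4.36% ± 0.433 in RFPpos (SD, n = 5), and 20 of 20 such genes rose. Markers of endothelial cells fell from 0.510% ± 0.213 to 0.0216% ± 0.0103, those of oligodendrocytes from 1.00% ± 0.516 to 0.183% ± 0.10, and those of monocytes and neutrophils from 0.422% ± 0.183 to 0.0141% ± 0.00826. In sorted bulk samples, fewer cells of a type and less RNA per cell cannot be told apart. Because the microglial share was higher in RFPpos in 5 of 5 mice, each fold change is given on the scale set by all genes (TMM) and, where it matters, relative to the 20 microglia markers, a scale on which the median of all genes was shifted by -1.10 (log2).

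Of the 10 heat shock genes, 8 had at least 10 counts and were tested. Hsp90b1 rose in RFPpos, Hspb1 fell, and the other 6 did not pass edgeR's quasi-likelihood test at an adjusted p of 0.05. Over all 12270 genes tested, 11.8% passed, 4.27% as higher and 7.49% as lower. Among the 4366 genes with at least 100 counts, 11.1% rose and 11.2% fell. With the study's further threshold of an absolute log2 fold change above 1, which 2.80% of all genes passed as higher and 6.75% as lower, Hspb1 was the 1 heat shock gene that remained. Of the 8 genes, 7 had a positive log2 fold change, as did 5272 of all 12270 genes tested. The median of the 8 was 0.11 beside -0.15 for all genes tested. Relative to the microglia markers, none of the 8 was positive (915 of all 12270 genes were), none was called higher and 6 were lower. Their median was -1.02 beside -1.24 for all genes. On that scale 0.122% of all genes were higher and 44.7% lower, and 67.7% of those with at least 100 counts were lower. The 10 genes together took 0.265% ± 0.0355 of the counts in RFPneg and 0.307% ± 0.0293 in RFPpos, with a higher share in RFPpos in 3 of 5 mice.

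**Figure D1:**
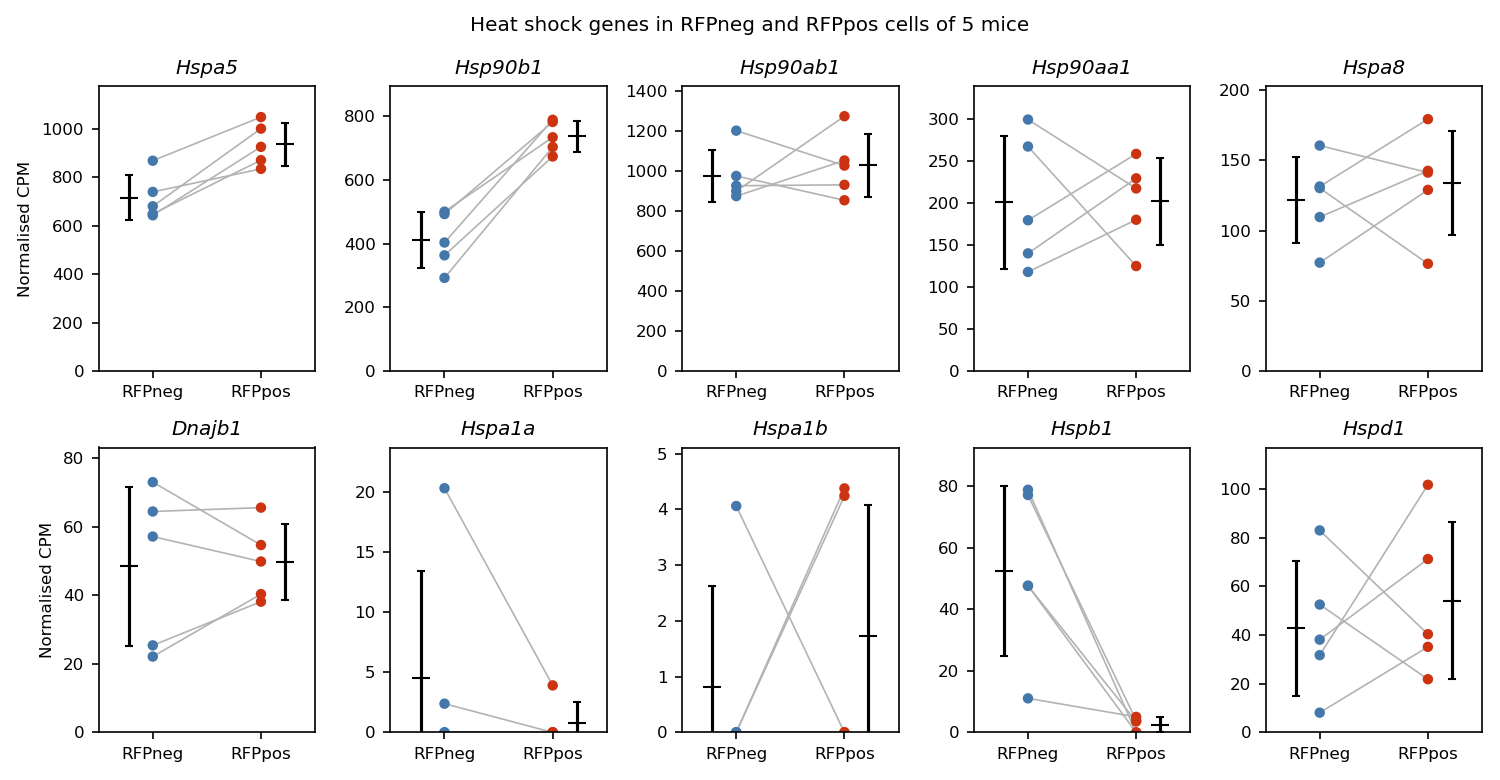
Normalised CPM (linear axes from 0, a different range for each gene) of the 10 heat shock genes in RFPneg (blue) and RFPpos (red) cells, with a grey line joining the samples of each of the 5 mice and black bars for the mean ± SD, cut at 0. The populations are separate for Hsp90b1 and Hspb1 and overlap for the other genes.

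The stress-inducible HSP70 genes Hspa1a and Hspa1b gave few counts in either population. Hspa1a (ENSMUSG00000091971, chr17:34969190-34972156, minus strand) gave 0, 0, 1, 5 and 0 counts in the RFPneg samples of mice 1 to 5 and 0, 0, 0, 1 and 0 in the RFPpos samples. Hspa1b (ENSMUSG00000090877, chr17:34956436-34959238, minus strand) gave 0, 0, 0, 1 and 0 counts in RFPneg and 0, 0, 1, 0 and 1 in RFPpos. Most of these few counts came from mouse 4. Summed over samples, counts were divided by TMM-scaled library size to give a ratio of RFPpos to RFPneg. It was 0.190 for Hspa1a (6 against 1 counts, 95% exact interval 0.00414 to 1.57) and 2.29 for Hspa1b (1 against 2 counts, 0.119 to 135). These intervals, and the other exact intervals given below, cover counting error only.

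The 2 genes are near-identical copies, and the 300 bases around their RefSeq start sites (250 before, 50 after) matched at 296 positions. Their 3′ ends, where the tags lie, were not compared, so how reads were split between them, or whether reads that fit both were dropped, is uncertain, and the counts may be too low. Hspa1a also shares exon positions with Gm20481 on the other strand. With both genes summed, 7 counts stood against 3, a ratio of 0.490 (95% exact interval 0.0817 to 2.15), and edgeR gave a log2 fold change of -0.22 with a standard error of 2.03 and an adjusted p of 0.973. A difference between the populations was not detectable at this depth. A level below 3 counts, which is 7.17 to 16.6 CPM depending on the library, would not have been seen dependably in any 1 sample.

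The 2 ER chaperones among the 10 genes stood at higher levels in RFPpos in every mouse, and 1 of them passed the test. Hsp90b1 encodes GRP94, the HSP90 of the ER (ENSMUSG00000020048, chr10:86690209-86705509, minus strand). It measured 493, 500, 363, 292 and 404 CPM in the RFPneg samples of mice 1 to 5 and 782, 734, 674, 704 and 789 CPM in the RFPpos samples. All RFPpos samples lay above all RFPneg samples, which was so for 3.65% of all genes tested and 8.93% of those with at least 100 counts. The mean rose from 410 ± 88.2 to 737 ± 49.7 CPM (SD, n = 5), 1.79-fold, with a log2 fold change of 0.87, a standard error of 0.20 and an adjusted p of 3.26e-04 by edgeR. Relative to the microglia markers, its log2 difference was -0.26 with a standard error of 0.22 and an adjusted p of 0.324, so it did not rise on that scale. Some exon positions of Hsp90b1 are shared with Gm15344 and Gm25745 on its strand and with 1810014B01Rik on the other.

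Hspa5 encodes BiP, the HSP70 of the ER and a sensor partner in the unfolded protein response (ENSMUSG00000026864, chr2:34771970-34777547, plus strand). Its levels were 869, 643, 681, 650 and 740 CPM in RFPneg and 1050, 927, 1002, 872 and 836 CPM in RFPpos. The value was higher in RFPpos in 5 of 5 mice, as for 7.69% of all genes tested, but the highest RFPneg sample lay above the lowest RFPpos sample. Means of 717 ± 93.5 and 937 ± 88.9 CPM (SD, n = 5) gave a log2 fold change of 0.39 with a standard error of 0.19. The unadjusted p was 0.0421 and the adjusted p 0.204 by edgeR, which did not pass, although limma voom gave an adjusted p of 0.0394. Relative to the microglia markers, the log2 difference was -0.73 with an adjusted p of 0.00176 by edgeR. The mean within-mouse difference in log2 CPM was 0.86 ± 0.27 for Hsp90b1 and 0.39 ± 0.16 for Hspa5 (SD, n = 5 mice).

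The RefSeq start-site windows of both genes hold the ER stress element, the letters CCAAT and CCACG with 9 bases of any kind between them, bound by factors of the unfolded protein response. This motif was looked for after the values had been seen, on both strands of the 300-base RefSeq windows (GRCm38.p6), and it was found in 39 of 32851 windows (0.119%). The matches of the members and of the ER chaperones Calr and Canx are shown with 5 bases on each side, the motif's positions in capitals, since these are the 2 ER members and the other genes with a match that passed the test:
Hspa5 chr2:34772020-34772048: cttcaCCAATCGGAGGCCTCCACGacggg
Hsp90b1 chr10:86705633-86705661: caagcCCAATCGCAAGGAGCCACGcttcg
Hsp90b1 chr10:86705528-86705556: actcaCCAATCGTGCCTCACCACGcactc
Calr chr8:84847070-84847098: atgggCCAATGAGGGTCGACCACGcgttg
Canx chr11:50325795-50325823: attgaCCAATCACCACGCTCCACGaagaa

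The match of Hspa5 ran from base -65 to -47 relative to the RefSeq start, at positions inside the longer span of the gene in GENCODE, and those of Hsp90b1 from -212 to -194 and, on the strand opposite to the gene, from -107 to -89. The site of Calr was also on the opposite strand. Of the 20 other ER chaperone and folding genes listed, 17 had a window and 5 held the motif: Calr, Canx, Pdia6, Dnajc3 and Creld2. In all, 37 genes with a symbol held it and 13 of them were tested, of which Hsp90b1, Calr and Canx rose and none fell, beside 4.27% and 7.49% of all genes tested. Those 3 were among the genes that led to the search, so the count is no independent support. The median log2 fold change of the 13 was 0.32, beside -0.15 for all genes tested. Scaled to the microglia markers, it was -0.74, none of the 13 was higher and 4 were lower, beside a median of -1.24 and shares of 0.122% higher and 44.7% lower over all genes. A match of letters is a description and shows no binding.

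The other ER genes were compared for the same question. Of 20 ER chaperones and folding enzymes, all tested, 2 rose and none fell, with a median log2 fold change of 0.22. Over all genes tested 4.27% rose, and among genes with at least 100 counts 11.1% did, which is near the share of these 20. On the microglia marker scale, none of the 20 was higher and 12 were lower, with a median of -0.91, where 0.122% of all genes were higher, 44.7% were lower (67.7% of those with at least 100 counts) and the median was -1.24. Canx, the membrane lectin chaperone calnexin, measured 235 ± 42.7 CPM in RFPneg and 488 ± 73.7 in RFPpos (SD, n = 5), a log2 fold change of 1.05 with an adjusted p of 2.15e-05 by edgeR. Calr, its soluble relative calreticulin, measured 295 ± 32 and 534 ± 71.9 CPM, a log2 fold change of 0.85 with an adjusted p of 7.96e-04. Both were higher in 5 of 5 mice, as were 7.69% of all genes tested. On the log2 scale, Pdia6, a disulfide isomerase, was at 0.61 (adjusted p = 0.0562, and under 0.05 in 4 of 18 other settings with microglia scaling aside), Dnajc3, a J-domain partner of BiP, 0.32 (0.471), and Creld2 -0.11 (0.951). Relative to the microglia markers, Canx was at -0.07 (adjusted p = 0.813), Calr at -0.28 (0.312) and Pdia6 at -0.51 (0.0741). None of 8 tested regulators of the unfolded protein response passed, and their median was 0.14.

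The cytosolic HSP90 and HSC70 genes overlapped between the populations and did not pass the test. Hsp90ab1, the constitutive HSP90 beta (ENSMUSG00000023944, chr17:45567775-45573271, minus strand), had the highest level of the 10 genes and ranked 50 among all genes by mean CPM. It measured 975, 1201, 898, 926 and 874 CPM in RFPneg and 853, 1026, 1273, 930 and 1052 CPM in RFPpos, and the RFPneg values lay inside the range of RFPpos. The log2 fold change was 0.07 with a standard error of 0.19 and an adjusted p of 0.898 by edgeR.

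Hsp90aa1, the inducible HSP90 alpha (ENSMUSG00000021270, chr12:110690605-110702728, minus strand), measured 299, 267, 179, 118 and 140 CPM in RFPneg and 217, 125, 258, 180 and 229 CPM in RFPpos. Mice 1 and 2 had lower values in RFPpos and mice 3 to 5 higher values. Its log2 fold change was 0.07 with a standard error of 0.24 and an adjusted p of 0.931. Hspa8, the constitutive HSC70 (ENSMUSG00000015656, chr9:40800984-40810087, plus strand), measured 161, 110, 131, 77.1 and 130 CPM in RFPneg and 141, 143, 179, 129 and 76.4 CPM in RFPpos. The populations overlapped over nearly their whole range, and the log2 fold change was 0.13 with a standard error of 0.27 and an adjusted p of 0.861. Relative to the microglia markers, these genes were lower by log2 values of -1.05 for Hsp90ab1, -1.05 for Hsp90aa1 and -0.99 for Hspa8 (adjusted p of 3.19e-06, 2.89e-04 and 0.00270 by edgeR), near the median of all genes. Several of these abundant genes have processed copies in the mouse genome, and how the authors' counting shared such reads is not given in the sources used here.

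Since a ratio of 2 genes within a library does not move with the scaling of that library, counts of Hsp90b1 were set against those of Hsp90ab1, a comparison chosen after the values were seen. The ratio was 0.506, 0.417, 0.404, 0.316 and 0.462 in the RFPneg samples of mice 1 to 5 and 0.917, 0.715, 0.529, 0.756 and 0.750 in the RFPpos samples. No RFPneg sample reached the lowest RFPpos sample. The mean ratio went from 0.421 ± 0.0711 to 0.734 ± 0.138 (SD, n = 5), with a mean log2 difference of 0.80 ± 0.31 within mice and higher values in 5 of 5 mice. An exact permutation test of the mean log2 difference, with signs flipped over the 5 mice, gave p = 0.0625 (two-sided), the smallest it allows. Hspa5 counts per Hspa8 count had a mean log2 difference of 0.27 ± 0.47, higher in 4 of 5 mice, with p = 0.3125 in the same exact test. Hsp90b1 per Hspa5 count had 0.48 ± 0.34, higher in 5 of 5 mice (exact p = 0.0625). This permutation test over 5 mice cannot reach 0.05, and 3 ratios were tested.

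**Figure D2:**
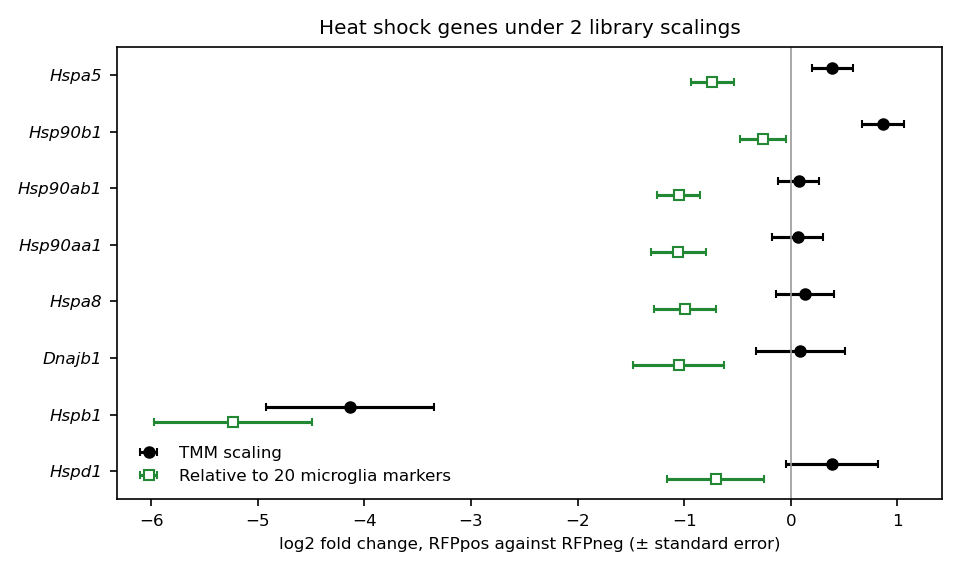
Log2 fold change of RFPpos against RFPneg (horizontal axis, with standard errors) for the 8 tested heat shock genes, scaled by TMM (black circles) and relative to the 20 microglia markers (green squares). Hsp90b1 is at 0.87 under the first scaling and -0.26 under the second, and Hspb1 is far below 0 under both.

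Hspb1, which encodes the small heat shock protein HSP27 found in muscle and vascular cells among others (ENSMUSG00000004951, chr5:135887919-135889563, plus strand), nearly vanished from RFPpos. It gave 2, 10, 33, 19 and 15 counts in RFPneg and 1, 1, 0, 1 and 0 in RFPpos, which are 11.1, 47.7, 78.8, 77.1 and 47.7 CPM against 5.05, 3.56, 0, 3.91 and 0 CPM. All RFPpos samples lay below all RFPneg samples, as for 6.00% of all genes tested, and RFPneg mouse 1 was the lowest of its group. Summed, 79 counts stood against 3, a ratio of 0.0434 after division by TMM-scaled library size (95% exact interval 0.00876 to 0.132). The log2 fold change was -4.14 with a standard error of 0.79 and an adjusted p of 1.00e-06 by edgeR. Hspb1 was lower in 5 of 5 mice, as were 13.1% of all genes tested.

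Endothelial markers fell in the same samples as Hspb1, as did markers of some other cell types. The endothelial share was 0.181% to 0.755% of counts in RFPneg and 0.00899% to 0.0367% in RFPpos, 10 of 10 such genes fell, and none was at 0 in all RFPpos samples. Monocyte and neutrophil markers fell from 0.422% ± 0.183 to 0.0141% ± 0.00826, with 8 of 8 genes lower. Of 8 markers of pericytes and smooth muscle, 5 fell, and Kcnj8, Tagln and Myh11 had no count in RFPpos. RFPneg mouse 1, with the lowest Hspb1 level, also had the lowest endothelial share of its group. RFPneg mouse 3, with the highest Hspb1 level, had the highest monocyte and neutrophil share (0.718%). RFPneg mouse 4, next in Hspb1 level, had the highest endothelial share (0.755%). The genes whose log2 CPM was most like that of Hspb1 over the 10 samples were Acer2, Lsr and Egfl7 (Pearson r of 0.99, 0.98 and 0.98 among 4366 genes with at least 100 counts). After the mean of each population was removed they were Etf1, Egfl7 and Acer2 (0.93 each). Within a sample, the levels compared are scaled by the same library total and come from the same mix of cells. The part of vascular or any other cells in the fall of Hspb1 was not tested.

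Cryab, the small heat shock protein alpha B-crystallin that is abundant in oligodendrocytes and astrocytes, also fell. It measured 399, 262, 162, 73.1 and 118 CPM in RFPneg and 5.05, 35.6, 26.3, 3.91 and 25.5 CPM in RFPpos. All RFPpos samples lay below all RFPneg samples, as for 6.00% of all genes tested. The log2 fold change was -3.24 with a standard error of 0.36 and an adjusted p of 8.75e-18 by edgeR. It fell in the same samples as the oligodendrocyte markers, 8 of 8 of which fell. The share of olfactory ensheathing glia markers also went from 0.907% ± 0.434 to 0.280% ± 0.165, lower in 5 of 5 mice. Of the 6 such genes, 2 rose and 2 fell. Astrocyte markers took 0.467% ± 0.0872 of the counts in RFPneg and 0.437% ± 0.216 in RFPpos, with 2 of 8 that fell and a share that was higher in RFPpos in 3 of 5 mice. The part of any of these cell types in the fall of Cryab was not tested. Cryab shares exon positions with Hspb2 on the other strand. Of 9 other small heat shock genes listed, 5 were tested, Cryab was the one that passed, and their median was -0.80. Over all genes tested 7.49% fell and the median was -0.15.

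**Figure D3:**
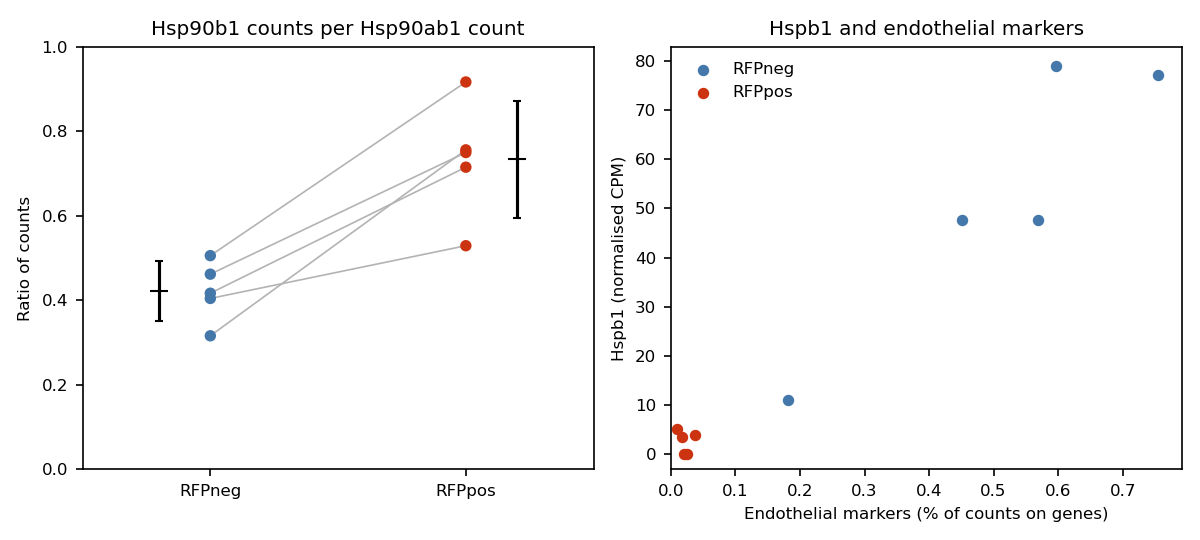
Left, counts of Hsp90b1 per count of Hsp90ab1 in RFPneg (blue) and RFPpos (red), with a line for each of the 5 mice and the mean ± SD in black. Right, Hspb1 in normalised CPM against the endothelial markers' share of counts, 1 point a sample, with the RFPpos samples near 0 on both axes.

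Hspd1, the mitochondrial HSP60 (ENSMUSG00000025980, chr1:55077835-55088243, minus strand), scattered widely in both populations. It measured 83.1, 38.1, 52.6, 8.12 and 31.8 CPM in RFPneg and 40.4, 71.3, 21.9, 35.2 and 102 CPM in RFPpos. It was higher in RFPpos in 3 of 5 mice, and the log2 fold change of 0.39 had a standard error of 0.44 and an adjusted p of 0.705 by edgeR. Hspe1, its HSP10 partner, which starts head to head with it and shares exon positions with it on the other strand, was at 0.07 (adjusted p = 0.958). Hspd1 was the only one of the 7 members with a promoter window to hold the heat shock element, the letters GAA, TTC and GAA with 2 bases of any kind between each, searched on both strands and present in 198 of 32851 windows (0.603%). It was found as 2 overlapping matches upstream of 1 RefSeq start of Hspd1, at positions that lie inside the span of the gene in GENCODE, shown with the motif's positions in capitals and each on its own strand:
Hspd1 chr1:55088059-55088081: ttctaGAACCTTCCGGAAggccc
Hspd1 chr1:55088054-55088076: ttccgGAAGGTTCTAGAAcggac

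In these windows the letters were not found for Hspa1a, Hspa1b, Hspb1 or Dnajb1, from which nothing follows about the factor. The 54 tested genes with the motif had a median log2 fold change of -0.10, with 2 that rose and 5 that fell, near the shares of 4.27% and 7.49% over all genes tested.

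Dnajb1, the inducible J-domain partner of HSP70 (ENSMUSG00000005483, chr8:83608193-83612653, plus strand), measured 22.1, 57.2, 64.5, 73.1 and 25.4 CPM in RFPneg and 40.4, 49.9, 65.6, 54.7 and 38.2 CPM in RFPpos. The RFPpos values lay inside the range of RFPneg. The log2 fold change was 0.09 with a standard error of 0.42 and an adjusted p of 0.948 by edgeR. Pooled, 69 counts stood against 60, a ratio of 0.994 (95% exact interval 0.691 to 1.43).

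The 10 genes were also ordered by level. QuantSeq gives 1 tag a transcript, so CPM were compared between genes without division by length. In RFPneg, Hsp90ab1 (975 ± 132 CPM) was above Hspa5 (717 ± 93.5) and Hspa5 above Hsp90b1 (410 ± 88.2) with no overlap of samples. Hsp90b1 and Hsp90aa1 (201 ± 79.2), Hsp90aa1 and Hspa8 (122 ± 30.9), and Hspb1 (52.5 ± 27.7), Dnajb1 (48.5 ± 23.3) and Hspd1 (42.7 ± 27.7) overlapped with their neighbours. In RFPpos, Hsp90ab1 (1027 ± 159) and Hspa5 (937 ± 88.9) overlapped, Hsp90b1 (737 ± 49.7) was separate from Hspa5 and from Hsp90aa1 (202 ± 51.4), Hspa8 (134 ± 37.2), Hspd1 (54.1 ± 32.2) and Dnajb1 (49.8 ± 11.2) overlapped with their neighbours, and Hspb1 (2.50 ± 2.35) lay below every sample of Dnajb1. Hspa1a and Hspa1b had the fewest counts of the 10 genes over both populations. Hspa5 ranked 70 and Hsp90b1 122 among all genes by mean CPM.

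Across the 10 samples, log2 CPM of Hspa5 and Hsp90b1 had a Pearson r of 0.81, and of 0.33 after each population's mean was removed. Within populations other pairs were higher, among them Hspa5 and Hspa8 (0.76), Hsp90b1 and Hspd1 (0.71), and Hsp90aa1 and Hsp90b1 (0.70). Dnajb1 had negative values with Hspa5 (-0.60) and Hsp90b1 (-0.62). The genes most like Hspa5 were P2ry13, Pip4k2a and Golm1, both over the 10 samples (0.98, 0.98 and 0.97 among 4365 genes) and within populations (0.94, 0.94 and 0.93). Within populations, r of Hspa5 was 0.90 with the microglia markers' share and -0.90 with the endothelial share. For Hsp90b1 it was 0.40 with the microglia share, -0.54 with the endothelial, 0.54 with the oligodendrocyte and -0.51 with the monocyte and neutrophil share. With the microglia share, r was 0.76 for Hspa8 and -0.75 for Dnajb1. These values describe 10 samples, and within a sample both levels are scaled by the same library total. The likeness of other genes to Hspa1a rests on its 7 counts and is not given.

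The rest of the chaperone network was read from lists of 115 genes, of which 105 were tested. Of these, 4 rose and 3 fell, beside 4.27% and 7.49% of all genes tested, so the number that rose was near the background. Their median log2 fold change was 0.06. Besides Canx and Calr, the genes that rose were Fnip1, an HSP90 cochaperone bound to folliculin, and Dnajc13, a J-domain protein of endosomes. Fnip1 went from 144 ± 17.6 to 291 ± 69.4 CPM (log2 fold change 0.99, adjusted p = 4.38e-04 by edgeR). Dnajc13 went from 39.5 ± 26.6 to 82.5 ± 21.9 CPM (1.11, adjusted p = 0.0340), a call lost under 11 of 18 other settings (microglia scaling aside), with adjusted p of 0.00949 to 0.182 over them. Relative to the microglia markers, Fnip1 was at -0.13, Dnajc13 at 0.01, and none of the 105 genes was higher while 61 were lower, where 44.7% of all genes and 67.7% of those with at least 100 counts were lower.

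Besides Cryab, the genes that fell were Dnajb2, a J-domain protein with ubiquitin-binding motifs, and Hspa12b, an HSP70 relative of endothelial cells. Dnajb2 went from 55.7 ± 14.2 to 16.5 ± 3.23 CPM (log2 fold change -1.72, adjusted p = 0.00896 by edgeR). Without mouse 2 its adjusted p was 0.0555 and without mouse 4 it was 0.0550. Hspa12b had 22 counts in RFPneg and 0 in RFPpos, at least 6.42-fold lower when 3 counts are allowed over the group (adjusted p = 0.0155, and 0.103 without mouse 3 or 0.0562 without mouse 4).

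Over all genes tested 4.27% rose and 7.49% fell. By class, 1 of 18 other J-domain proteins rose and 1 fell (median -0.04), 1 of 18 HSP90 cochaperones rose (0.03), and 1 of 8 other HSP70 and HSP110 genes fell (-0.04). None of 10 HSP70 exchange factors (0.10) and none of 15 chaperonin and prefoldin genes (0.07) passed. Hsph1, the HSP110 partner of HSP70, was at -0.11 on the log2 scale (adjusted p = 0.965) and Bag3, the exchange factor of HSP70 in selective autophagy, 0.56 (0.460).

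Hsf1, the heat shock transcription factor, gave 4, 3, 6, 5 and 9 counts in RFPneg and 0, 2, 0, 3 and 0 in RFPpos. It was lower in 5 of 5 mice with no overlap in CPM, as 6.00% of all genes tested were. The raw counts did meet: RFPneg mouse 2 and RFPpos mouse 4 each had 3 counts. Only library scaling set these samples apart, at 14.3 and 11.7 CPM. Its log2 fold change of -2.37 had a standard error of 1.04 and an adjusted p of 0.102 by edgeR's quasi-likelihood test. The adjusted p was 0.0357 by its likelihood ratio test, 0.0231 by limma voom and 0.150 by DESeq2's Wald test. Without each mouse in turn, the log2 fold change ran from -3.17 to -1.89 and the quasi-likelihood adjusted p from 0.113 to 0.301. Relative to the microglia markers, Hsf1 was at -3.43 with an adjusted p of 0.00117 by edgeR. The ratio of summed Hsf1 counts was 0.212 (27 against 5, 95% exact interval 0.0636 to 0.557). This interval covers counting error only and leaves out the spread between mice.

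**Figure D4:**
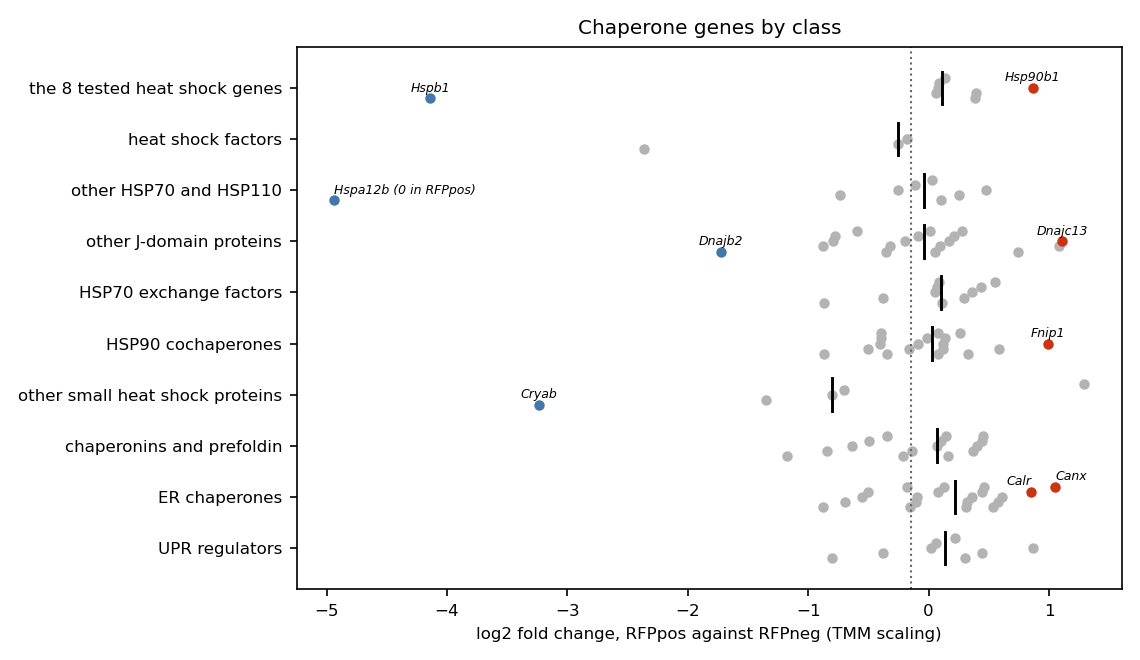
Log2 fold change (RFPpos against RFPneg, TMM scaling) of each tested chaperone gene by class, with genes that passed the test in red (higher) or blue (lower) and named, a black bar for the class median and a dotted line for the median of all genes tested. Most points lie within 1 log2 unit of 0, and the position of Hspa12b, with 0 counts in RFPpos, depends on the prior count.

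Immediate early genes respond to stress sooner than the heat shock genes do. Of 20 listed genes, 18 were tested, none rose and 5 fell (Klf4, Klf2, Dusp1, Ier3 and Nfkbia), with a median log2 fold change of -0.66. Of all genes tested 4.27% rose and 7.49% fell, and 11.2% of those with at least 100 counts fell. Relative to the microglia markers, none of the 18 was higher and 15 were lower, with a median of -1.79. On that scale 44.7% of all genes and 67.7% of those with at least 100 counts were lower, and the median was -1.24. The immediate early genes' share of counts was 0.250% ± 0.0434 in RFPneg and 0.169% ± 0.0293 in RFPpos (SD, n = 5), lower in 5 of 5 mice. Klf2 and Klf4 are also expressed in endothelial cells, monocytes and neutrophils, whose markers fell in the same samples, and the part of these cells in the values was not tested.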

How the data were processed

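Bulk RNA from RFPneg and RFPpos cells of 5 mice (n = 5 each) was analysed; the single-cell samples were not analysed here. The deposited values are raw counts per gene, which the authors made with version 2.3.1 of Lexogen's QuantSeq pipeline for molecular identifiers; the bulk genome build and annotation are not given in the sources used here. Reads on no gene (32.1% to 48.6% of each library) and ambiguous reads (0.295% to 0.436%) were left out. Of 47643 identifiers, 47224 matched a symbol. Genes with at least 10 counts in all (12270) were tested with edgeR 4.0.16 in R 4.3.3 (quasi-likelihood, TMM, mouse as a block, Benjamini-Hochberg adjustment). The study's methods used edgeR's likelihood ratio test, which was an alternative here with DESeq2 1.42.0 and limma 3.58.1 voom, other scalings, filters and left-out mice. The methods state that both populations came from the same mice, and samples were paired here by their number. That samples with the same number share a mouse was assumed, and all within-mouse values rest on it. The correlations of paired deviations were 0.21, -0.04, 0.14, -0.00 and 0.02, which do not settle the match.

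CPM were computed from TMM-scaled library sizes. Microglia scaling equalised the summed counts of 20 markers. Gene positions are GENCODE M21 on GRCm38, and start-site windows and sequences are from RefSeq, GRCm38.p6. No window was used for Hspa8, Hsp90aa1 and Hsp90ab1. The members and lists were chosen with earlier results of these data known. Named were the 10 members, up to 2 passing genes per direction and list with the smallest p, and Hsf1, Bag3, Hsph1, Hspe1 and Cryab; Pdia6, Dnajc3, Creld2 and the immediate early genes that fell were named after their values were seen. The edgeR steps were tested on simulated data. Libraries correlated at most at 0.887, so none was a repeat of another.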

Additional observations from a re-analysis of the deposited data

Results flagged for a closer look

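Within groups of 5, a sample was set apart from the others in 3 of 49 groups compared, those of 24 genes among them. Chance alone gives about 1 in 20, and all 3 rest on 1 to 5 counts of mouse 4. A single count against 4 zeros is always set apart, so that rate does not hold for the values of 1 count. Hspa1a stood at 20.3 CPM in RFPneg mouse 4 (5 counts), with the next sample at 2.39. In RFPpos, Hspa1a stood at 3.91 CPM in mouse 4 (1 count) and at 0 in the other samples. Hspa1b stood at 4.06 CPM in RFPneg mouse 4 (1 count) and at 0 in the others.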

How the results depend on the processing

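Hsp90b1 passed under 18 of 18 settings other than microglia scaling (log2 fold change 0.63 to 0.98, adjusted p of 2.84e-05 to 0.0348) and Hspb1 under 17 of 17 that tested it (-4.70 to -2.51, 9.35e-08 to 9.00e-04). Hspa5 passed under 1 of 18. Among the settings, a larger prior count changes fold changes and not p, and summing Hspa1a with Hspa1b leaves the other genes almost as they were. Neither could be expected to change a call, here or in the other counts out of 18. The value of -2.51 for Hspb1 came from the larger prior count, and the next smallest fall was -3.62 under limma voom. Pdia6 passed under upper quartile scaling (adjusted p = 0.0220), limma voom (0.0499), without mouse 4 (0.0378) and without mouse 5 (0.0157), and not under the other settings (up to 0.364). Of the heat shock genes, 1 rose and 1 fell without each mouse in turn (1 to 1 for both counts). The number that rose was 0 under microglia scaling and with a fold change filter of log2 above 1, and 2 under limma voom and at an unadjusted p under 0.05. The number that fell was 6 under microglia scaling, where it was 5 to 7 without each mouse and 0 to 0 rose, and 0 with filterByExpr, which tested 7 of the genes and not Hspb1. Of the other chaperones, the number that rose was 7 under upper quartile scaling, 0 under microglia scaling, 2 with the fold change filter, 9 at an unadjusted p, and 3 to 7 without each mouse (7 without mouse 5). The number that fell was 5 under DESeq2 size factors, library size alone and the likelihood ratio test, 7 with library sizes that include reads on no gene, 61 under microglia scaling, 8 at an unadjusted p, and 1 to 4 without each mouse (1 without mouse 4). The cause was not tested.

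Signs turned under microglia scaling for Hspa5 (-0.73), Hspa8 (-0.99), Hsp90aa1 (-1.05), Hsp90ab1 (-1.05), Hsp90b1 (-0.26), Hspd1 (-0.70), Dnajb1 (-1.05), Bag3 (-0.57), Fnip1 (-0.13), Hspe1 (-1.05), Calr (-0.28), Canx (-0.070), Pdia6 (-0.51) and Dnajc3 (-0.80). With library sizes that include reads on no gene, which moved the median of all genes by -0.22, they turned for Hspa8 (-0.096), Hsp90aa1 (-0.17), Hsp90ab1 (-0.16), Dnajb1 (-0.12) and Hspe1 (-0.17). With library size alone, Hsp90aa1 was at -0.010, Hsp90ab1 at -0.0015 and Hspe1 at -0.0053, and with filterByExpr they were at -0.013, -0.0052 and -0.012. Without each mouse in turn, Hsp90aa1 ranged from -0.099 to 0.38, Hsp90ab1 from -0.020 to 0.19, Hspd1 from -0.014 to 0.81, Dnajb1 from -0.038 to 0.26, Hsph1 from -0.31 to 0.18, Hspe1 from -0.30 to 0.48 and Creld2 from -0.21 to 0.084. The mean log2 difference of the Hsp90b1 to Hsp90ab1 ratio stayed between 0.68 and 0.90. The share of calls that were higher was 36.3% over all genes, 0.273% under microglia scaling, 19.8% with reads on no gene and 46.6% with filterByExpr.

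Without the replicate block for mouse, 541 genes rose and 1011 fell in place of 524 and 919, Hsp90b1 was at 0.85 (adjusted p = 0.00180) and Hspb1 at -4.19 (7.73e-06), and Dnajc13 lost its call (0.96, adjusted p = 0.0809). No call among the 8 heat shock genes changed. Genes under about 10 counts in all, Hspa1a and Hspa1b among them, are beyond what this depth can compare.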
